A study of Mus musculus with 4 samples.

Results

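Toll-like receptors are membrane proteins that recognise microbial molecules, and NF-kB is the family of transcription factors that their signal releases into the nucleus. The transcripts of this pathway were described in sorted hematopoietic stem cells (HSCs) of mouse bone marrow. The members are the 12 listed genes whose symbol is Tlr followed by a number, together with 28 named genes, which makes 40 of the 23450 genes listed. They fall into 12 receptors, 15 adaptors and kinases, 5 NF-kB subunits and 8 feedback inhibitors. The cells were sorted by surface proteins, CD9 being a tetraspanin. Long-term HSCs (LT-HSC, 2 libraries) carried CD150 and much CD9 and lacked CD48 and CD34. Short-term HSCs (ST-HSC, 2 libraries) carried CD150 and little CD9 and lacked CD48, and no CD34 gate is named for them. All 4 libraries were made from 2000 cells each, and the labels give no treatment, and no strain, sex or age of the mice. The labels do not tie libraries to animals, so the spread behind every p-value may be technical, between libraries and not between mice.

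In this pathway a receptor that has bound its ligand recruits adaptor proteins, mainly Myd88, and these assemble the Irak kinases and the ubiquitin ligase Traf6. The kinase Map3k7 with its Tab partners then activates the IkB kinase complex, made of Chuk, Ikbkb and the scaffold Ikbkg, which marks IkB proteins for destruction and so frees the NF-kB dimers. NF-kB in turn induces genes of its own inhibitors, and HSCs are known to sense microbial products through some of these receptors.

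Many genes of the NF-kB system carry the motif that NF-kB binds in their own promoters, and the members whose values are described below were searched for it. The general kappaB motif (10 bases, degenerate, searched on both strands, overlapping matches counted by their position) was looked for in RefSeq windows of GRCm38.p6, from 250 bases before to 50 bases after each start site. A window was at hand for 32 of the 40 members and not for Ikbkb, Nfkb1, Nfkbiz, Relb, Tab1, Ticam2, Tlr4 and Tlr7. At least 1 match lay in a window of 2 of 3 NF-kB subunit genes, 5 of 7 feedback inhibitor genes, 3 of 12 adaptor and kinase genes and 2 of 10 receptor genes, against 9.55% of all 27025 genes with a window. Of all windows, which have the same length, 8.46% held a match. A match is a description of the letters, not a binding site, and no binding was measured here. The stretches below show where matches lie in a receptor gene, in 2 subunit genes and in 3 inhibitor genes, and their likeness follows from the search itself, each on the gene's own strand, with the matched bases in capitals.
Tlr2, chr3:83841741-83841811, minus strand: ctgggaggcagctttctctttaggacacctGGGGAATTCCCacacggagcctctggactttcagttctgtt
Nfkb2, chr19:46304668-46304736, plus strand: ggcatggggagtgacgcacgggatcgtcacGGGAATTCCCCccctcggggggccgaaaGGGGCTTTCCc
Rel, chr11:23771021-23771091, minus strand: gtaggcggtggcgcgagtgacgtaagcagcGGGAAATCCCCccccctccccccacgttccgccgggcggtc
Nfkbia, chr12:55492648-55492706, minus strand: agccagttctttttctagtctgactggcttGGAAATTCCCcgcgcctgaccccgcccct
Nfkbie, chr17:45555564-45555633, plus strand: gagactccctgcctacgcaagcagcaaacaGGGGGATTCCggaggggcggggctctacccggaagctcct
Tnip1, chr11:54962957-54963028, minus strand: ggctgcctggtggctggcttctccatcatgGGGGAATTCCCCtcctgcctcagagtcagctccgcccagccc
In Tlr2, Nfkb2, Rel and Tnip1 overlapping matches merge into 1 run of capitals, and Nfkb2 holds a further match closer to its start site. Further matches in Tlr2, across its start site, and in other windows of Nfkb2 are not shown.

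Library totals ran from 13080145 to 16158977 reads. Levels are given in CPM, a rate scaled to the reads of the library, and 1 read stands for 0.0619 to 0.0765 CPM. As the values were read, genes with 0 reads and genes with 1 read share the lowest value, so "unread" below means at most 1 read, and these genes were set to 0 CPM. In each library, 3 reads correspond to 0.186 to 0.229 CPM. Of 13 marker genes of HSCs, 12 were listed and all 12 were read in all 4 libraries, among them Procr, the gene of the surface protein EPCR, and Mecom, a transcription factor gene of HSC maintenance. Some markers of other blood cells were read too and varied between single libraries. Summed over 17 listed monocyte-macrophage markers they reached 265 to 325 CPM in LT-HSC and 330 to 412 CPM in ST-HSC. Over 14 neutrophil-granulocyte markers the sums were 412 and 479 CPM in LT-HSC and 743 and 361 CPM in ST-HSC, and over 8 dendritic cell markers 57.4 and 76.4 CPM in LT-HSC and 96.6 and 119 CPM in ST-HSC. The sums over 8 listed B cell markers were 220 and 130 CPM in LT-HSC and 147 and 165 CPM in ST-HSC. Over 11 T and NK cell markers they were 24.2 and 105 CPM in LT-HSC and 83.3 and 112 CPM in ST-HSC. For 9 megakaryocyte-platelet markers they were 436 and 528 CPM in LT-HSC and 343 and 202 CPM in ST-HSC. Among these, Itga2b was at 2.52 and 5.07 CPM in LT-HSC, against 152 and 105 CPM in ST-HSC. Vwf went the other way, at 304 and 380 CPM against 45.4 and 9.23 CPM. For 8 listed erythroid markers the sums were 516 and 382 CPM against 525 and 492 CPM. For 7 mast cell and basophil markers they were 22.4 and 0 CPM against 16.6 and 6.40 CPM. Read in all 4 libraries were Lyz2 (monocytes, 140 to 153 CPM), Ccr9 (dendritic cells, 41.5 to 46.2 CPM), Cd79b (B cells, 91.8 to 209 CPM) and Nkg7 (NK cells, 13.2 to 97.3 CPM), while the B cell precursor gene Igll1 had 834 reads in ST-HSC 2 and at most 5 elsewhere. The defining genes Cx3cr1 (monocytes), Itgax and Batf3 (dendritic cells), Pax5 and Cd22 (B cells), and Cd3d and Cd3e (T cells) were unread in all 4 libraries.

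The comparison asked how the pathway differs between CD9-high, CD34-negative HSCs and CD9-low HSCs. Of the 40 members, 32 had at least 1 CPM in at least 2 libraries and were tested. No member passed the test over all 12608 tested genes: 0 were higher and 0 lower in LT-HSC at an adjusted p under 0.05 (limma on log2(CPM + 1), Benjamini-Hochberg), and the share of all genes was 0.00%. At an unadjusted p under 0.05, limma gave 0 of 32 members against 6.50% of all genes (2.92% higher and 3.59% lower), and limma-voom on recovered reads gave 0 members too, and 595 of 12608 genes. The smallest adjusted p among the members was 0.767, for Tlr3. In 7 members the lower of the LT-HSC values exceeded the higher of the ST-HSC values (Myd88, Traf6, Map3k7, Chuk, Rel, Tnfaip3 and Bcl3), and in 1 the order was the opposite (Tlr3). Over all tested genes these shares were 16.1% above and 17.5% below, and 7 of 32 and 1 of 32 are read against them. Tlr3 reached 1 CPM in its ST-HSC libraries only, so it entered the test through the group where it was high. The median log2 fold change was 0.18 over the 32 members, with 21 values above 0 and 11 below, and -0.01 over all tested genes, with 6201 above and 6407 below. Fold changes below are therefore values and not calls. They are log2 differences of CPM + 1, LT-HSC minus ST-HSC, a scale that shrinks differences of genes near 0.

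**Figure D1:**
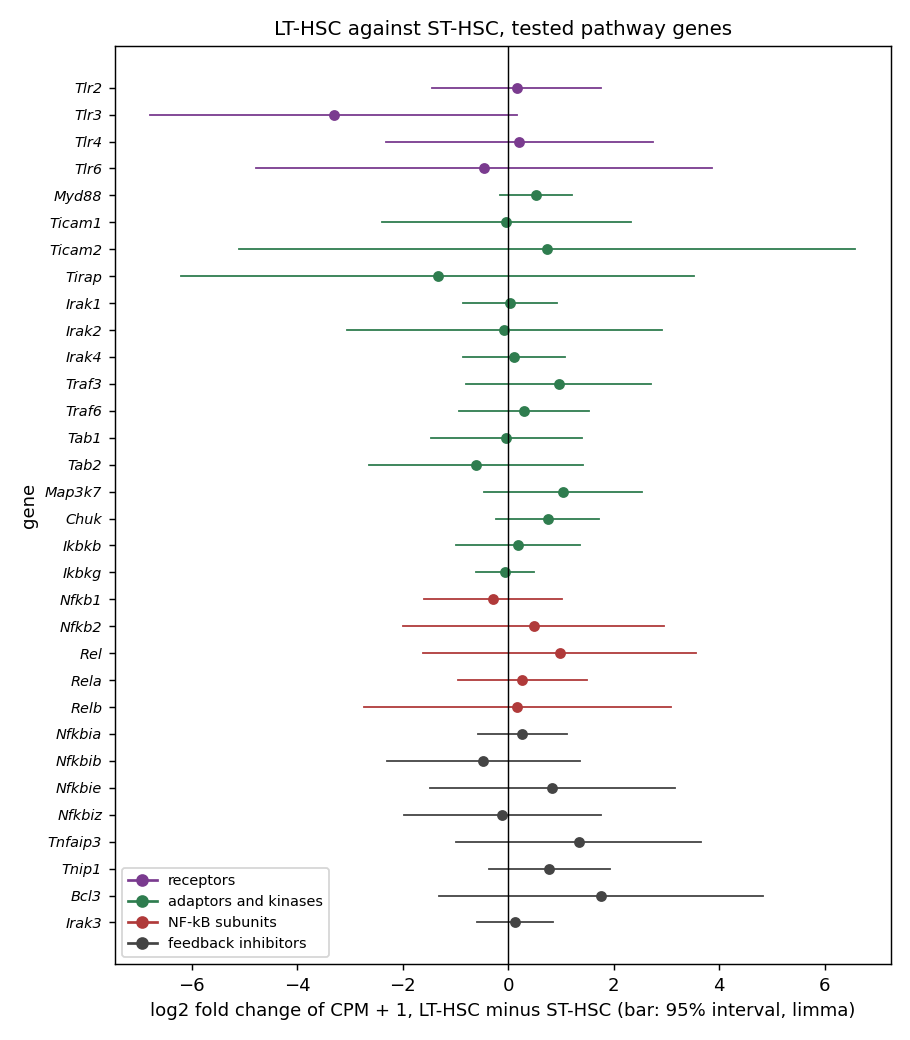
Difference between LT-HSC and ST-HSC for the 32 tested members, as log2 fold change of CPM + 1 on the x axis, with 95% intervals from limma as bars and colours by role. Every interval includes 0, and the intervals are widest for members with low or uneven reads such as Ticam2 and Tirap.

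Receptors were the least represented role. Only Tlr2 and Tlr4, which recognise bacterial lipoproteins and lipopolysaccharide, were read in all 4 libraries, and Tlr5, Tlr7, Tlr8, Tlr9, Tlr11 and Tlr12 were unread in all of them. The unread receptors sense flagellin (Tlr5), single-stranded RNA (Tlr7 and Tlr8), unmethylated CpG DNA (Tlr9) and profilin of protozoa (Tlr11 and Tlr12). The lowest value leaves room for up to 1 read of each in every library.

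Tlr2 stood at 40.7 and 26.9 CPM in LT-HSC 1 and 2 and at 35.7 and 24.4 CPM in ST-HSC 1 and 2. The groups overlapped, with a log2 fold change of 0.16 ± 0.63 (SE, n = 2 against 2 libraries). Tlr4 stood at 15.0 and 9.65 CPM in LT-HSC, against 6.51 and 15.8 CPM in ST-HSC. Its lowest and highest values were both ST-HSC libraries, and the log2 fold change was 0.21 ± 0.99 (SE).

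Tlr3, the endosomal receptor for double-stranded RNA, was unread in LT-HSC 1, had 2 reads in LT-HSC 2, and had 40 and 433 reads in ST-HSC 1 and 2. In CPM these are 0, 0.124, 2.66 and 29.2, so both ST-HSC libraries were higher, although they differed from each other more than 10-fold. Over the library totals, the reads of both ST-HSC libraries were 231 times those of both LT-HSC libraries (95% exact binomial interval 63.7 to 1916, counting error only). Against ST-HSC 1 alone the ratio was 38.9, and against ST-HSC 2 alone it was 427. The unread LT-HSC 1 value counts as 0 reads here. If it held 1 read, which the lowest value allows, these ratios would be lower. The log2 fold change was -3.31 ± 1.35 (SE, limma adjusted p = 0.767, interval -6.79 to 0.17). It was -1.79 without ST-HSC 2 and -4.83 without ST-HSC 1, -1.68 on log2(CPM + 5) and -6.84 with limma-voom. Dendritic and monocyte-macrophage marker sums were also higher in both ST-HSC libraries (above). Each order rested on 1 gene, Flt3 for the dendritic and Cd68 for the monocyte-macrophage sums. Without that gene the sums of the groups overlapped. Cd68 was at 12.1 and 8.48 CPM in LT-HSC, against 75.9 and 17.1 CPM in ST-HSC. With all markers, the monocyte-macrophage sums came close, with LT-HSC 1 at 325 CPM and ST-HSC 2 at 330 CPM. Of 10 tested monocyte-macrophage markers, 4 were wholly lower in LT-HSC, 1 (Lyz2) was wholly higher and 5 overlapped. Over all tested genes, 17.5% were wholly lower and 16.1% wholly higher. Of 4 tested dendritic markers, Flt3 differed most, at 6.50 and 22.0 CPM in LT-HSC against 39.0 and 69.6 CPM in ST-HSC. Ccr9 was slightly lower in LT-HSC, Zbtb46 higher, and Xcr1 overlapped, beside the same shares of all tested genes. The part of such cells in the Tlr3 values was not tested. In bulk samples, fewer cells that hold a transcript and less of it per cell cannot be told apart.

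Tlr1 and Tlr6, partners of Tlr2 in sensing lipoproteins, are neighbouring genes of similar sequence, so reads may be split between them, and whether reads were counted by strand is not stated. Tlr6 was unread in both libraries numbered 1 and had 83 reads in LT-HSC 2 and 157 in ST-HSC 2, and Tlr1 had 7 and 65 reads in the same libraries. Both were thus seen in 1 library of each group. Tlr13, the receptor for bacterial ribosomal RNA, had 73 reads in LT-HSC 1 and was unread elsewhere. Over the 4 tested receptors the median log2 fold change was -0.15 (-1.30 when ST-HSC 1 was left out and 0.34 when ST-HSC 2 was), against -0.01 over all tested genes. Tlr3 counts in this median although it passed the filter through ST-HSC only.

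**Figure D2:**
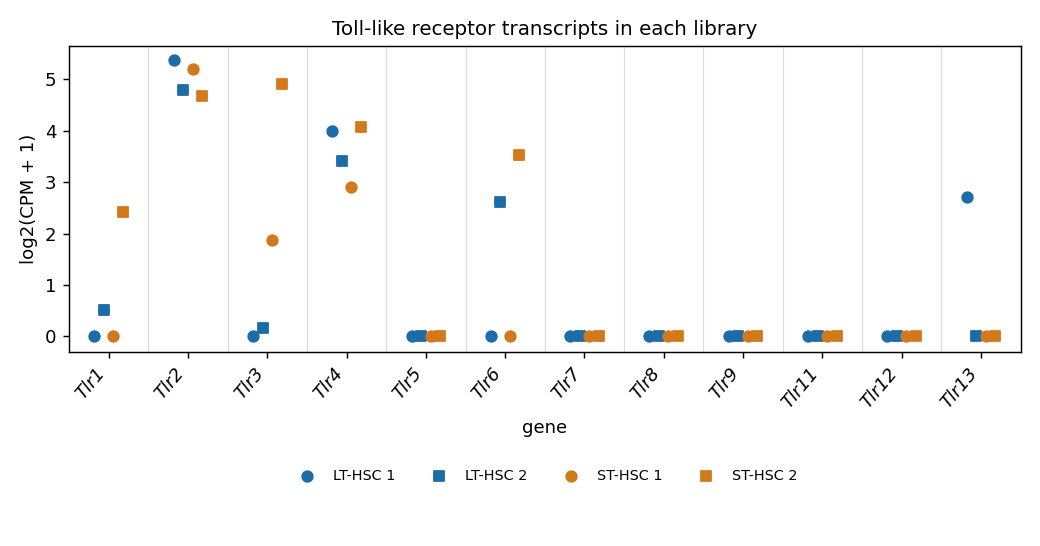
Level of each of the 12 receptor transcripts in each library, as log2(CPM + 1) on the y axis, with 1 point per library (blue LT-HSC, orange ST-HSC). Tlr2 and Tlr4 are above 0 in all 4 libraries, 6 receptors are at 0 in all 4, and Tlr3 is highest in ST-HSC 2.

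Receptors depend on accessory proteins, and 9 of a list of 10 such genes were listed in the files, of which 8 were tested and 0 passed in either direction (limma, Benjamini-Hochberg over all genes). Cd14, which hands lipopolysaccharide to the Tlr4 complex, was unread in both LT-HSC libraries and had 23 and 181 reads in ST-HSC 1 and 2. Like Tlr3, it passed the filter through its ST-HSC libraries only. Its mean in ST-HSC, 6.86 CPM, was at least 33.1-fold higher than a floor of 3 reads per LT-HSC library, or at least 7.37-fold with ST-HSC 1 alone and at least 58.8-fold with ST-HSC 2 alone. Cd14 is also a marker of monocytes, and the part of such cells in its values was not tested. Ly96, the other partner of Tlr4, had 3 and 311 reads in LT-HSC and 105 and 94 in ST-HSC, so LT-HSC held both the lowest and the highest value. Cd180, a Toll-like receptor homologue, was at 61.7 and 24.9 CPM in LT-HSC, against 63.3 and 86.3 CPM in ST-HSC, lower in both LT-HSC libraries. Unc93b1, which carries endosomal receptors to their compartment, was at 44.8 CPM in LT-HSC 2 and between 100 and 103 CPM in the other 3 libraries.

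Adaptors and kinases were read far more widely than receptors. Of the 15 genes, 14 were read in all 4 libraries and all 15 were tested, with a median log2 fold change of 0.11, 9 values above 0 and 6 below. Leaving out 1 library moved this median to between 0.25 (without ST-HSC 1) and 0.38 (without LT-HSC 2).

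Myd88, the adaptor of all Toll-like receptors except Tlr3, stood at 185 and 238 CPM in LT-HSC 1 and 2 and at 155 and 137 CPM in ST-HSC 1 and 2. Both LT-HSC libraries were higher, by a log2 fold change of 0.52 ± 0.27 (SE, limma adjusted p = 0.812, interval -0.16 to 1.20), or 0.34 without LT-HSC 2. Tirap, which links Myd88 to Tlr2 and Tlr4, was at 10.4 and 0 CPM in LT-HSC, against 1.40 and 29.4 CPM in ST-HSC, so each group held a high and a low library. Ticam1, the adaptor of Tlr3 also known as TRIF, was at 10.2 and 25.2 CPM in LT-HSC, against 12.0 and 23.1 CPM in ST-HSC. Its 2 groups covered nearly the same range. Ticam2, which links Ticam1 to Tlr4, had 9 and 734 reads in LT-HSC and 3 and 333 in ST-HSC, low in both libraries numbered 1 and high in both numbered 2.

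The Irak kinases act directly behind Myd88. Irak4, the kinase that starts the cascade, was at 211 and 116 CPM in LT-HSC, against 159 and 132 CPM in ST-HSC, and both ST-HSC values lay between those of LT-HSC. Irak1, its substrate, was at 293 and 178 CPM in LT-HSC, against 263 and 188 CPM in ST-HSC, again with both ST-HSC values between them. The log2 fold changes were 0.11 ± 0.38 (SE) for Irak4 and 0.04 ± 0.34 (SE) for Irak1. Irak2, a related kinase that prolongs the signal, was low in every library, at 3.13 and 5.51 CPM in LT-HSC, against 1.86 and 9.43 CPM in ST-HSC.

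Behind the Irak kinases stand the ubiquitin ligases. Traf6, which activates Map3k7, was at 52.1 and 43.4 CPM in LT-HSC, against 38.1 and 38.7 CPM in ST-HSC, for a log2 fold change of 0.30 ± 0.49 (SE), or 0.17 without LT-HSC 1. Traf3, which serves the interferon branch and restrains noncanonical NF-kB signalling, was at 183 and 72.5 CPM in LT-HSC, against 94.0 and 36.7 CPM in ST-HSC, with LT-HSC 2 below ST-HSC 1. The log2 fold change of Traf3 was 0.96 ± 0.68 (SE), or 0.29 without LT-HSC 1 and 1.62 without LT-HSC 2.

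Map3k7, which encodes the kinase TAK1, stood at 47.5 and 93.6 CPM in LT-HSC, against 39.6 and 25.7 CPM in ST-HSC. Both LT-HSC libraries were higher, with a log2 fold change of 1.04 ± 0.58 (SE, limma adjusted p = 0.831, interval -0.45 to 2.53), or 0.56 without LT-HSC 2. Its partner Tab1 was at 52.8 and 29.3 CPM in LT-HSC, against 40.3 and 40.4 CPM in ST-HSC. Tab2, which binds ubiquitin chains, was at 41.0 CPM in LT-HSC 1 and at 208 CPM in LT-HSC 2, with ST-HSC between them at 148 and 137 CPM. The log2 fold change of Tab2 was -0.62, and 0.54 without LT-HSC 1.

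In the IkB kinase complex, Chuk (the alpha subunit, also used by the noncanonical pathway) was at 223 and 133 CPM in LT-HSC, against 119 and 87.4 CPM in ST-HSC. Both LT-HSC libraries were higher, with a log2 fold change of 0.75 ± 0.38 (SE, limma adjusted p = 0.812, interval -0.23 to 1.73), or 0.38 without LT-HSC 1. Ikbkb (the beta subunit, the main kinase of IkB proteins) was at 205 and 255 CPM in LT-HSC, against 307 and 131 CPM in ST-HSC, with both LT-HSC values inside the ST-HSC range. Ikbkg, the scaffold also called NEMO, was the steadiest of the complex, at 271 and 319 CPM in LT-HSC and 282 and 333 CPM in ST-HSC, for a log2 fold change of -0.06 ± 0.21 (SE) with an interval from -0.61 to 0.48.

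**Figure D3:**
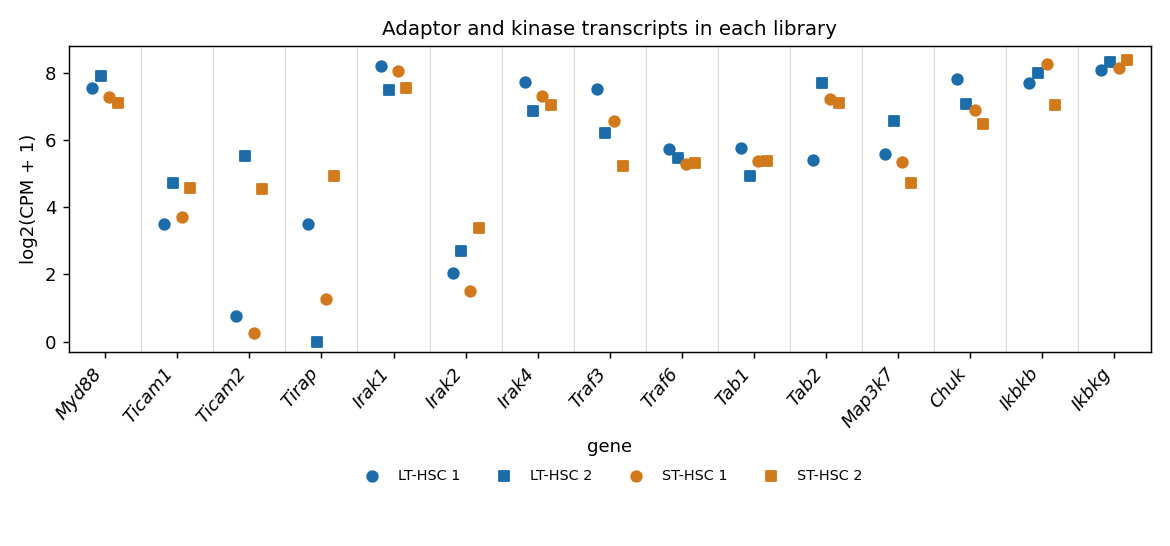
Level of the 15 adaptor and kinase transcripts in each library, as log2(CPM + 1) on the y axis, with 1 point per library (blue LT-HSC, orange ST-HSC). The 4 points of Ikbkg lie close together, while Ticam2 and Tirap are spread from near 0 upwards within both groups.

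All 5 NF-kB subunit genes were read in all 4 libraries. Their median log2 fold change was 0.27 (-0.10 when LT-HSC 1 was left out and 1.23 when LT-HSC 2 was), and 0 of 5 passed. Nfkb1, whose product is a precursor that is cut to a DNA-binding subunit, stood at 129 and 328 CPM in LT-HSC, against 206 and 308 CPM in ST-HSC, with LT-HSC holding both the lowest and the highest value. Rela, its usual activating partner, stood at 118 and 70.1 CPM in LT-HSC, against 57.3 and 98.5 CPM in ST-HSC, and the groups overlapped. The log2 fold changes were -0.29 ± 0.51 (SE) for Nfkb1 and 0.27 ± 0.47 (SE) for Rela.

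The noncanonical subunits were uneven within LT-HSC. Nfkb2 stood in LT-HSC 1 at 71.3 CPM but in LT-HSC 2 at 13.7 CPM, against 23.8 and 20.9 CPM in ST-HSC, so that LT-HSC 1 stood above and LT-HSC 2 below both ST-HSC libraries. Relb, the usual partner of the Nfkb2 product, was at 48.3 and 9.34 CPM in LT-HSC, against 33.6 and 10.6 CPM in ST-HSC, high in both libraries numbered 1. Rel, which is important in lymphocytes, was low throughout, at 12.5 and 8.42 CPM in LT-HSC and 5.98 and 3.71 CPM in ST-HSC. Both LT-HSC libraries were above both ST-HSC libraries for Rel, with a log2 fold change of 0.97 ± 1.02 (SE).

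The feedback inhibitors had a median log2 fold change of 0.53 over 8 genes with all 4 libraries, with 6 values above 0 and 2 below and 0 of 8 past the test. Their summed level was 851 and 761 CPM in LT-HSC and 655 and 620 CPM in ST-HSC. The order was the same for adaptors and kinases (1787 and 1762 against 1661 and 1372 CPM). It was so too for all 40 members (3078 and 2995 against 2687 and 2518 CPM), while sums of receptors and of NF-kB subunits overlapped. This order is not particular to the members. HSC markers had it (4711 and 4902 against 3538 and 3796 CPM). So did the other inhibitors described below (1727 and 1744 against 1278 and 1272 CPM), whose median log2 fold change was -0.19. Monocyte-macrophage and dendritic marker sums had the opposite order. The median of the feedback inhibitors was lowest, 0.28, when ST-HSC 1 was left out and highest, 0.84, when LT-HSC 2 was. No difference between the roles was tested.

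Nfkbia encodes IkB alpha, the inhibitor that is destroyed and made anew in each round of signalling. It was at 150 and 113 CPM in LT-HSC, against 122 and 95.01 CPM in ST-HSC, overlapping ranges with a log2 fold change of 0.27 ± 0.33 (SE, interval -0.57 to 1.11). For Nfkbia it dropped to 0.066 when LT-HSC 1 was left out and to 0.092 when ST-HSC 2 was, and reached 0.48 at most. Nfkbib, for IkB beta, was at 105 and 37.6 CPM in LT-HSC, against 138 and 55.5 CPM in ST-HSC, higher in the libraries numbered 1 of both groups. Nfkbie, for IkB epsilon, was at 43.6 and 24.4 CPM in LT-HSC, against 9.17 and 33.97 CPM in ST-HSC. For each of these 3 genes the groups overlapped.

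Tnfaip3 encodes a ubiquitin-editing enzyme that ends NF-kB signalling. Its level was 88.2 and 85.2 CPM in LT-HSC, 82.1 CPM in ST-HSC 1 and 13.5 CPM in ST-HSC 2. The log2 fold change of 1.33 ± 0.90 (SE, limma adjusted p = 0.870) fell to 0.077 without ST-HSC 2 and was 2.59 without ST-HSC 1, so its size turned on 1 library, ST-HSC 2. Tnip1, which binds the Tnfaip3 protein, was at 261 and 147 CPM in LT-HSC, against 85.7 and 150 CPM in ST-HSC, with LT-HSC 2 just below ST-HSC 2 and a log2 fold change of 0.78 ± 0.44 (SE). For Tnip1 it dropped to 0.37 when LT-HSC 1 was left out and to 0.38 when ST-HSC 1 was, and reached 1.20 at most.

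Bcl3 and Nfkbiz encode nuclear IkB-like proteins that can raise as well as lower NF-kB targets. Bcl3 was at 15.0 and 26.0 CPM in LT-HSC, against 12.6 and 1.75 CPM in ST-HSC. The groups were separate, but LT-HSC 1 and ST-HSC 1 were close, and the log2 fold change of 1.76 ± 1.19 (SE) was 0.61 without ST-HSC 2. Nfkbiz was at 34.6 and 115 CPM in LT-HSC, against 48.1 and 96.4 CPM in ST-HSC, higher in the libraries numbered 2 of both groups. Irak3, a kinase-like protein that holds back the Irak kinases, was even across the libraries, at 153 and 213 CPM in LT-HSC and 157 and 174 CPM in ST-HSC, for a log2 fold change of 0.13 ± 0.28 (SE).

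**Figure D4:**
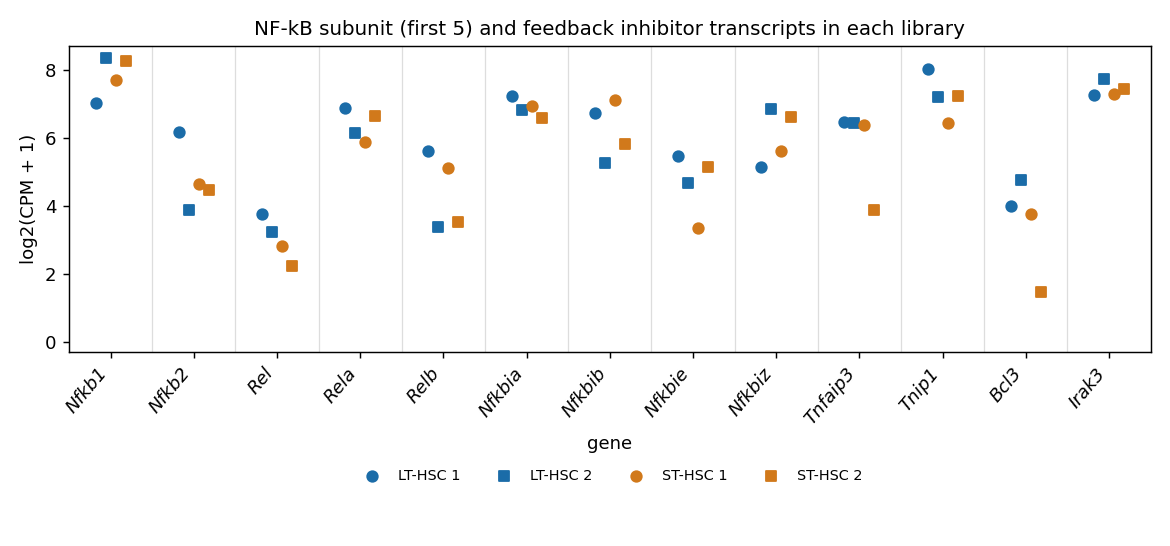
Level of the 5 NF-kB subunit transcripts and the 8 feedback inhibitor transcripts in each library, as log2(CPM + 1) on the y axis, with 1 point per library (blue LT-HSC, orange ST-HSC). For Tnfaip3 and Bcl3 the ST-HSC 2 point stands apart below the other 3.

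Some members differed between libraries of the same group, as many other genes did. The 2 LT-HSC libraries differed more than 2-fold for 12 of the 32 tested members and the 2 ST-HSC libraries for 14, against 41.0% and 35.0% of all tested genes.

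To compare genes with each other, CPM were divided by transcript length (the longest protein-coding transcript of GENCODE M21, in kilobases), which is not the authors' annotation. On this scale Myd88 was highest, with a mean of 91.2 CPM per kilobase over the 4 libraries, followed by Nfkbia at 76.1, Irak1 at 60.1, Nfkb1 at 59.0, Ikbkb at 56.5 and Irak3 at 56.3 CPM per kilobase. Tlr2 reached 10.6 and Tlr4 2.88 CPM per kilobase, and Rel was lowest of the tested members at 1.02. The 4 values of Tlr2 (8.10 to 13.5 CPM per kilobase) did not overlap with those of Myd88 (69.8 to 121), whereas all 31 pairs of neighbours in the order overlapped in their ranges.

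**Figure D5:**
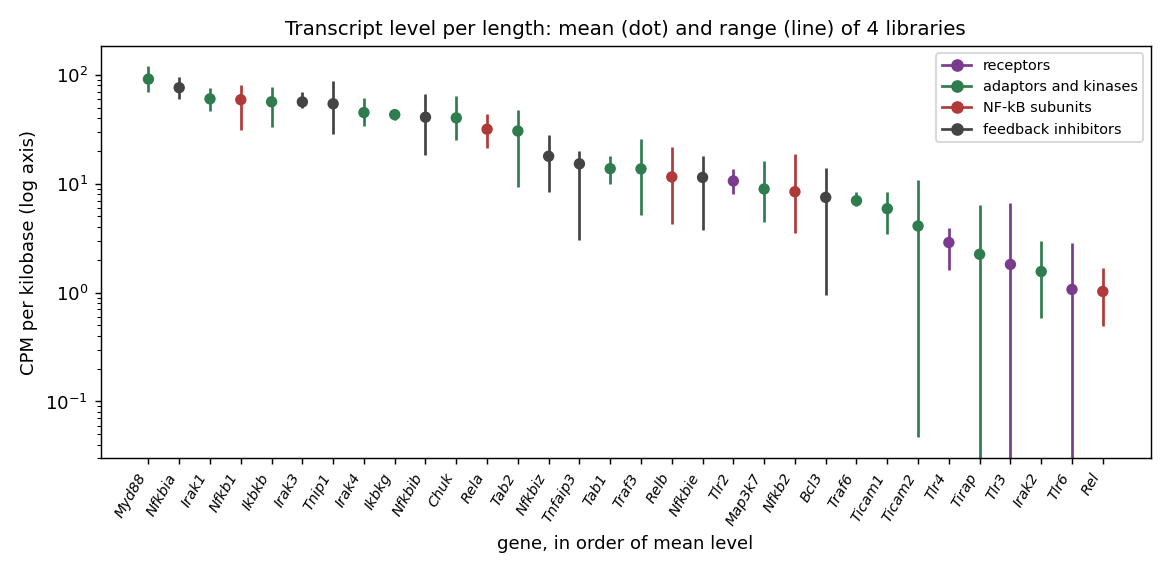
Level per length of the 32 tested members in order of their mean, as CPM per kilobase on a log axis, with dots for the mean and lines for the range of the 4 libraries (lines that reach the lower edge extend to 0 or near it). The ranges of neighbours overlap, and 20 members have a mean over 10 CPM per kilobase.

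Further genes of the pathway, listed by function, were read beside the members. Among 31 other transmitters of the signal, 29 were tested and 0 passed in either direction, with a median log2 fold change of 0.08, 6 above both and 5 below both ST-HSC libraries (16.1% and 17.5% of all tested genes, whose median was -0.01). The smallest p-values in this list belonged to Ripk2, Tbkbp1 and Ikbke. Ripk2, the kinase of the intracellular Nod receptors, was at 73.0 and 45.1 CPM in LT-HSC, against 9.24 and 18.3 CPM in ST-HSC, with both LT-HSC libraries higher and a log2 fold change of 2.05 ± 0.71 (SE, limma adjusted p = 0.749). Tbkbp1, which binds the kinase Tbk1, was at 31.7 and 92.2 CPM in LT-HSC, against 9.11 and 24.3 CPM in ST-HSC. Ikbke, an IkB kinase relative of the interferon branch, was at 89.7 and 131 CPM in LT-HSC, against 64.5 and 63.0 CPM in ST-HSC.

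Of 17 other inhibitors, 16 were tested, 0 passed, and 5 lay above both and 2 below both ST-HSC libraries, beside the same 16.1% and 17.5% of all genes. The median log2 fold change was -0.19, with 6 values above 0 and 10 below, against -0.01 over all genes. The genes named next had the smallest p-values of this list, and all of them were higher in LT-HSC. Pdlim2, a ligase adaptor that directs nuclear Rela to destruction, was at 174 and 184 CPM in LT-HSC, against 65.8 and 82.0 CPM in ST-HSC. Its LT-HSC libraries were close together and both higher, with a log2 fold change of 1.27 ± 0.30 (SE, limma adjusted p = 0.718). Dusp1, a phosphatase that dampens the MAP kinase branch, was at 548 and 355 CPM in LT-HSC, against 277 and 299 CPM in ST-HSC. Tnip3, a relative of Tnip1, was at 147 and 150 CPM in LT-HSC, against 95.5 and 23.6 CPM in ST-HSC, where ST-HSC 2 was again the lowest as for Tnfaip3 and Bcl3.

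Known NF-kB target genes were read last. Of a list of 36, 31 were listed in the files and 16 were tested, with 0 past the test, a median log2 fold change of 0.39 (-0.01 over all tested genes), and 6 above both and 2 below both ST-HSC libraries (16.1% and 17.5% of all tested genes). The cytokine genes Il6, Il1b, Il10, Csf2, Ccl20 and Il23a, and also Nos2 and Plau, were unread in all 4 libraries. Tnf had 14 reads in ST-HSC 1 only. In all 4 libraries 14 of the 31 were read, among them the cytokine genes Ccl3 (1.26 to 8.60 CPM) and Ccl4 (21.6 to 35.4 CPM). Tnfaip2, a tumour necrosis factor-inducible gene, was at 143 and 92.3 CPM in LT-HSC, against 23.3 and 19.6 CPM in ST-HSC. All its LT-HSC values exceeded those of ST-HSC, with a log2 fold change of 2.38 ± 0.49 (SE, limma adjusted p = 0.718). Icam1, an adhesion molecule, was at 165 and 116 CPM in LT-HSC, against 43.1 and 78.3 CPM in ST-HSC, and Junb, an AP-1 subunit, at 68.1 and 72.9 CPM in LT-HSC and 35.2 and 29.6 CPM in ST-HSC. The log2 fold changes were 1.23 ± 0.44 (SE) for Icam1 and 1.10 ± 0.46 (SE) for Junb, and both adjusted p-values in limma were above the threshold (0.758 and 0.767). Tnfaip2, Icam1 and Junb had the smallest p-values of this list, in which 10 fold changes were above 0 and 6 below.

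Signalling receptors of interleukins 1 and 18 also use Myd88, and 6 genes of these receptors and their regulators were read. Of these, 4 were tested and 0 passed. Il1r2, a decoy receptor, and Il1rn, a secreted antagonist, neither of which signals, were unread in all 4 libraries. Il1r1, the receptor of interleukin 1, was at 20.5 and 10.8 CPM in LT-HSC, against 27.97 and 30.6 CPM in ST-HSC, lower in both LT-HSC libraries, with a log2 fold change of -0.93 ± 0.76 (SE). Il18rap, a chain of the interleukin 18 receptor, was at 1.45 and 6.31 CPM in LT-HSC, against 15.0 and 25.7 CPM in ST-HSC, also lower in both, with a log2 fold change of -2.29 ± 1.10 (SE, limma adjusted p = 0.806).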

How the data were processed

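RNA of 2000 sorted cells per library was converted to cDNA with the SMARTer kit, per the labels' protocols, and the submitters' processing notes name TopHat and the mm9 build. Not given in the sources used here are the read counter and the annotation. The authors deposited 1 log2 value per gene and library. The steps between low values are whole reads (100% of 2666 to 4217 values from 2 to 100 reads per library came within 0.1 of a whole number), and the values were read as log2 CPM with unread genes raised to 1 read. Under this reading the recovered reads fell 0.00216% to 0.00479% short of the library totals given by the steps, against 0.0853% to 0.116% if 1 read had been added to every gene.

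CPM were taken back from the log2 values, and genes reaching 1 CPM in 2 or more libraries entered the fit, on log2(CPM + 1), LT-HSC against ST-HSC (R 4.3.3, limma 3.58.1 with trend and robust shrinkage, statmod 1.5.0), adjusted by Benjamini-Hochberg over all tested genes. Libraries of a group were not copies of each other (chi-square over degrees of freedom 182 and 143). Every member is named. Of each further list, the members past the threshold or up to 3 with the smallest p are named. Beside them stand genes that are unread or chosen after their values were seen (among them Ly96, Tnf, Ccl3 and Ccl4). Members and lists were chosen with earlier results of these data known. Promoter coordinates are of GRCm38.p6, and were not joined to coordinates of mm9.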

Additional observations from a re-analysis of the deposited data

How the results depend on the processing

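No gene and no member passed in any of the fits, which changed the scaling (TMM factors), the filter, the added value (5), the replicate number as a block, the library left out, the test (limma-voom) or the reading of the values (1 read less per gene); the latter 2 were chosen after seeing the data, and the planned edgeR test was not run because the files hold no counts. The smallest adjusted p among the members was 0.767, and 0.556 to 0.9999 over the alternatives. The replicate block left the counts at 0 for members and 0 for all genes. With it, 1 of 32 members (Tlr3) had an unadjusted p under 0.05 in limma, against 887 of 12608 tested genes. For the fits with 1 library left out, the fold changes are given below. Deviations of same-numbered libraries correlated across genes at 0.05. A value over all genes can miss some of them, so it cannot show whether same-numbered libraries share an animal or a preparation. With the block, the SE of Ticam2 fell from 2.27 to 1.17 and that of Bcl3 rose from 1.19 to 1.30. With 1 library left out, the members with LT-HSC wholly above ST-HSC numbered 11 to 18 and those wholly below 3 to 8, in place of 7 and 1, since fewer values are compared; of all tested genes, 28.9% to 37.5% then lay wholly above and 32.0% to 36.8% wholly below, in place of 16.1% and 17.5%. The medians then ranged from 0.21 to 0.42 for all members (0.18 with all libraries), 0.28 to 0.84 for feedback inhibitors and -1.30 to 0.34 for receptors.

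Of 32 tested members, 11 kept their sign in every fit and 21 changed it with 1 library left out. The 7 members wholly above and the 1 wholly below ST-HSC are among those 11. Leaving out 1 library cannot change the sign of such a gene, so their kept sign adds nothing to that order. The share of all tested genes that kept their sign was not computed. Ranges of those 11 were 0.61 to 2.92 for Bcl3, 0.38 to 1.12 for Chuk, 0.56 to 1.52 for Map3k7, 0.34 to 0.70 for Myd88, 0.066 to 0.48 for Nfkbia, 0.69 to 1.26 for Rel, -4.83 to -1.79 for Tlr3, 0.077 to 2.59 for Tnfaip3, 0.37 to 1.20 for Tnip1, 0.29 to 1.62 for Traf3 and 0.17 to 0.43 for Traf6. For the 21 the ranges were -0.43 to 0.80 for Ikbkb, -0.18 to 0.060 for Ikbkg, -0.32 to 0.39 for Irak1, -1.01 to 0.86 for Irak2, -0.11 to 0.37 for Irak3, -0.31 to 0.54 for Irak4, -0.96 to 0.38 for Nfkb1, -0.67 to 1.63 for Nfkb2, -1.20 to 0.25 for Nfkbib, -0.054 to 1.73 for Nfkbie, -0.96 to 0.74 for Nfkbiz, -0.12 to 0.66 for Rela, -0.95 to 1.30 for Relb, -0.45 to 0.38 for Tab1, -1.77 to 0.54 for Tab2, -0.65 to 0.57 for Ticam1, -1.65 to 3.13 for Ticam2, -3.17 to 0.49 for Tirap, -0.13 to 0.45 for Tlr2, -0.37 to 0.80 for Tlr4 and -2.22 to 1.31 for Tlr6. With limma-voom, the sign also changed for Irak1 (-0.0012), Irak2 (0.023) and Ticam1 (0.033); the cause was not tested. Amplified reads are not independent molecules, so read counts limit counting error only.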
